A study of Mus musculus with 38 samples.

Results

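The transcription factors that drive or restrain the epithelial to mesenchymal transition (EMT) were followed through mouse kidney, kidney tumours and tumour-derived cell lines. They are the 10 genes Snai1, Snai2, Snai3, Twist1, Twist2, Zeb1, Zeb2, Prrx1, Grhl2 and Ovol1, chosen by their symbols, and all 10 were found among the 21705 genes of the table. RNAseq of 38 libraries covers 10 groups. They are normal kidney of wild-type mice given vehicle (5 libraries), MYC, VM and VIM kidney tumours (3 libraries each), and the cell lines MYC-2983, VM-3055 and VIM-3039 maintained on doxycycline (Dox) or after Dox was withdrawn (4 libraries per line and condition). MYC mice (genotype label MYC+) carry a Dox-inducible MYC transgene driven through rtTA in the renal tubule by the Ksp promoter, so Dox turns the transgene on. VM mice (Vhl-/-; MYC +) also lose Vhl in the cells where tamoxifen activates a Ksp-driven Cre, and VIM mice (Vhl-/-; MYC +; Ink-/-/Arf-/-) lack Ink4a/Arf in every cell. By the study's methods, mice of these models received Dox in their chow, and Cre was activated beforehand with oral tamoxifen. Tumours thus differ from the vehicle kidneys in drug exposure as well as in genotype, and these cannot be told apart. Each genotype is represented in culture by a single line, and nothing in the labels says whether the 4 libraries of a cell group came from separate cultures, so their p-values measure only the spread between libraries, which may be technical. Of the 3 MYC tumour libraries, replicates 2 and 3 carry the number of mouse 2983, which is also that of the cell line, and they entered the tests as 1 mouse. VM tumour replicate 2 likewise carries the number of the VM-3055 line. The genotype alone stands in the labels of VM and VIM cells, whose line numbers were taken from the study. The study gives an age for the start of Dox chow, but the ages of the sequenced animals at sampling are not given in the sources used here.

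EMT is the programme by which epithelial cells give up their junctions and polarity and acquire the motility and matrix genes of mesenchymal cells. SNAIL proteins (Snai1, Snai2 and Snai3) and ZEB proteins (Zeb1 and Zeb2) are zinc-finger repressors that bind the E-box CACCTG in promoters such as that of E-cadherin, TWIST proteins (Twist1 and Twist2) are bHLH factors that act as dimers with E proteins, and Prrx1 is a homeobox factor of mesenchyme. Grhl2 and Ovol1 act in the other direction: Grhl2 keeps junction genes on in epithelia, and Ovol1, a zinc-finger repressor, holds down mesenchymal genes. In the kidney the tubules are epithelial, whereas interstitial fibroblasts and mural cells are the mesenchyme.

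In each library the authors scaled the values to an upper quartile of 1000, and a level in these units is not corrected for gene length. A value of 3 reads, which is 1.16 to 5.65 units depending on the library, served as the floor at or below which a gene was barely detected. Libraries held 8.22 to 36.6 M estimated reads, with the tumours and kidneys at the shallow end (8.22 to 15.5 M). The deleted genes were checked first. Vhl was 612 to 772 units in kidney and 468 to 559.7 in MYC tumours, but 40.2 to 79.9 in VM tumours, 219 to 312 in VIM tumours, 10.3 to 14.9 in VM-3055 and 8.32 to 18 in VIM-3039 cells with Dox. Cdkn2a, the Ink4a/Arf gene, was 30.1 to 95.5 in VIM and 3392 to 4347 in VM tumours, and 108, 2872 and 59.3 in MYC tumours. The Dox-driven transgene has no row of its own here. MYC tumour replicate 2 thus stood apart from the other MYC tumours in Cdkn2a, and also in cell-type markers, with fibroblast markers summing to 13059 units against 1384 and 1054, and without it 5 members in place of 4 were called against kidney. The titles number MYC-2983 libraries, the other cell libraries and the tissues in 3 separate series, so differences of MYC-2983 from the other lines, or of cells from tissue, cannot be told apart from these series.

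The genes lie on 8 chromosomes in the NCBIM37 (mm9) annotation. Snai1 spans chr2:167363695-167368314, Snai2 chr16:14705945-14709488, Twist1 chr12:34642536-34644682, Twist2 chr1:93698038-93744605, and Ovol1 chr19:5549137-5560575, all without another annotated gene in the same place. Snai3 (chr8:124978106-124984592), Zeb1, Zeb2 (chr2:44839154-44972915), Prrx1 (chr1:165175247-165243841) and Grhl2 (chr15:37162791-37293324) overlap predicted or non-coding genes on the opposite strand, and Zeb1, Zeb2, Prrx1 and Grhl2 also on their own strand. Whether the counting used strand is not given in the sources used here, so a part of the reads of these 5 genes could belong to their neighbours.

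The E-box CACCTG and its reverse complement CAGGTG were searched in the 250 bases before gene starts in RefSeq (GRCm38.p6, on the strand of the gene). It was found before 5252 of 27025 genes (19.4%). Of the 5 members matched there (Snai1, Twist1, Twist2, Zeb2 and Prrx1) only Snai1 held it. Of 24 epithelial junction and polarity genes 16 were matched and 11 held it (68.8%). A match describes letters in the window and is no evidence of binding. E-cadherin (Cdh1) was not among the 16 matched. The windows of Snai1, whose own promoter is a textbook target of SNAIL proteins, and of Epcam and Cldn4, both epithelial adhesion genes that reappear below, are given with the motif in capitals. They were picked among the genes that hold it. The windows of Cldn3 and Dsp, junction genes also named below, held 0 motifs.
Snai1 (chr2:167537945-167538194, + strand, motif starting 126 bases before the gene start): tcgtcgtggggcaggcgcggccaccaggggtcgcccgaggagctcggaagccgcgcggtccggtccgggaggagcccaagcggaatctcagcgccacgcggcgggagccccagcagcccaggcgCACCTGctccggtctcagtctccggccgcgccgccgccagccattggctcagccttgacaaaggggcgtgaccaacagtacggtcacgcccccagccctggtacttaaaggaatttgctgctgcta
Epcam (chr17:87635729-87635978, + strand, motifs starting 187 and 19 bases before the gene start): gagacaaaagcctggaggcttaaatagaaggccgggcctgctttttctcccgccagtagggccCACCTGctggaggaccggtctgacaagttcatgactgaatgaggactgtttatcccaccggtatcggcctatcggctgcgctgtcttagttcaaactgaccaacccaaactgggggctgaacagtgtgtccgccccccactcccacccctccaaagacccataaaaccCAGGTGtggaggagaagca
Cldn4 (chr5:134946935-134947184, − strand, motif starting 14 bases before the gene start): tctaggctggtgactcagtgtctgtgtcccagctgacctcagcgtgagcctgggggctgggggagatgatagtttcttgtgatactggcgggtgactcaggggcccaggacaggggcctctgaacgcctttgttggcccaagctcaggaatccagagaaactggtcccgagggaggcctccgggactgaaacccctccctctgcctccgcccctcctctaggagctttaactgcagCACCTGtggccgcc

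Twist2 and Snai1 were far higher in cultured cells than in tissue. Twist2, a bHLH factor, was at or under the floor in all 14 tissue libraries: kidneys held 1.73, 0, 1.34, 1.63 and 1.26 units, MYC tumours 0.933, 0 and 2.63, and all VM and VIM tumours 0. With Dox, cells held 484, 482, 457 and 453 units in MYC-2983, 529.7, 525, 497 and 505 in VM-3055 and 1001, 939, 955 and 985 in VIM-3039. Taking tumours at the floor, cells with Dox were thus at least 101-fold higher than tumours of the same genotype for MYC, 129-fold for VM and 172-fold for VIM. Per kb of exon Twist2 was the highest of the 10 genes in all 6 cell groups, with Snai1 next. No test was made between cells and tumours, because the former come from a single line and the latter from animals.

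Snai1, the repressor first tied to E-cadherin loss, showed the same split between culture and tissue. It was 29.4, 16.1, 5.35, 17.9 and 19 units in kidneys, 4.66, 29.3 and 1.41 in MYC tumours, 29.3, 5.15 and 8.63 in VM tumours and 16.9, 12.5 and 14.7 in VIM tumours. The 4 tissue groups overlapped one another, and all stayed under every cell library. Cells with Dox held 151 ± 14.6 units in MYC-2983, 147 ± 36 in VM-3055 and 265 ± 5.26 in VIM-3039 (mean ± SD, n = 4 each), which is 12.8, 10.2 and 18 times the mean of the tumours. Zeb1 was also lower in tumours than in cells with Dox of each genotype, by 2.76, 3.63 and 9.76 times, again with separate ranges. Zeb2 went the other way in MYC and VM, where tumours held 2.54 and 2.81 times the level of cells, and its ranges overlapped in VIM. In tumours a lower level in each tumour cell and fewer cells that express a gene cannot be told apart.

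**Figure D1:**
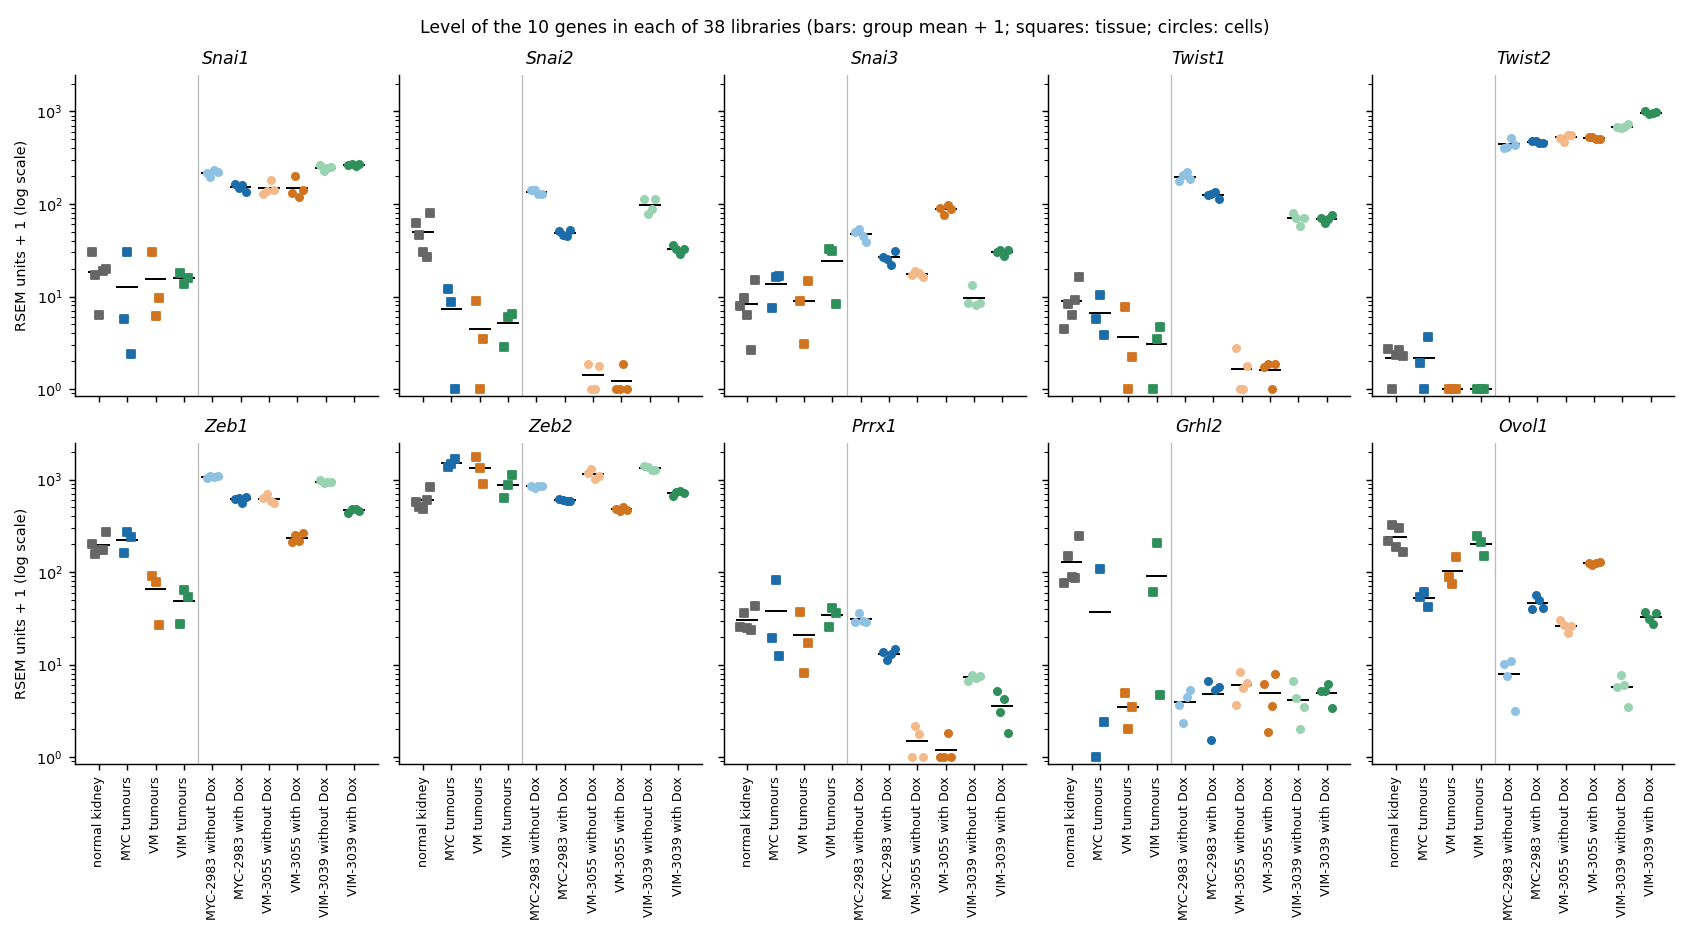
Level of each of the 10 genes (RSEM units + 1, log scale) in each of the 38 libraries, by group; squares are tissue, circles are cells and bars mark group means. Twist2 and Snai1 separate cells from tissue, Snai2 and Twist1 drop out in VM-3055 cells, and Grhl2 splits the MYC and VIM tumours.

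To see how the set differed with Dox, cells maintained on Dox were compared in each line to cells from which Dox was withdrawn. By the study's methods, cells were collected a day after plating with or without Dox. All 3 lines carry the MYC transgene, so its effect and that of Dox itself cannot be told apart. Here "rose with Dox" or "fell with Dox" means higher or lower in the cells kept on Dox, where the transgene stays on, than after its withdrawal. A gene was called with an adjusted p under 0.05 (limma, Benjamini-Hochberg over all genes tested) and a change over 1 on the log2 scale. By this rule 19.5% of the genes tested were called in MYC-2983, 24.8% in VM-3055 and 24.3% in VIM-3039. Of the 10 members 3 of 10 tested passed in MYC-2983 (1 higher, 2 lower), 4 of 8 in VM-3055 (2 higher, 2 lower) and 5 of 10 in VIM-3039 (2 higher, 3 lower). Of all genes tested, 4.49%, 5.92% and 7.67% were called higher in the 3 lines, and 15%, 18.9% and 16.6% lower. The share of called genes that were lower was 77%, 76.2% and 68.4%, against 67.5%, 59.5% and 56.5% after TMM rescaling and 58%, 51.5% and 50.7% after quantile normalization. Snai2 and Prrx1 were too low in VM-3055 to be tested. All log2 changes are on the log2(value + 1) scale, which understates those of low genes.

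Ovol1, the repressor of mesenchymal genes, rose with Dox in all 3 lines. In MYC-2983 cells it was 9.19, 6.58, 9.84 and 2.18 units without Dox and 39.1, 55.5, 49.3 and 39.8 with Dox. In VM-3055 it went from 29.1, 25.6, 20.9 and 25.1 to 125, 118, 123 and 126, and in VIM-3039 from 4.75, 6.69, 5.10 and 2.49 to 36.1, 29.8, 26.2 and 34.7. The groups did not overlap in any line. The log2 changes were 2.69 (SE 0.30, adjusted p = 1.64e-07), 2.25 (SE 0.14, adjusted p = 6.77e-11) and 2.55 (SE 0.27, adjusted p = 1.87e-08), and ratios of the means were 6.61, 4.89 and 6.67. The change was not shown to differ between lines by the interaction test, with differences of −0.44 (SE 0.38, adjusted p = 0.369) for VM-3055 against MYC-2983, −0.14 (SE 0.44, adjusted p = 0.825) for VIM-3039 against MYC-2983 and 0.30 (SE 0.30, adjusted p = 0.481) for VIM-3039 against VM-3055.

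Snai3, the third SNAIL paralog, rose with Dox in VM-3055 and VIM-3039 cells and not in MYC-2983 cells. In VM-3055 it rose from 15.9, 17.8, 17.1 and 15.2 units without Dox to 89.4, 74.9, 97.6 and 87.7 with Dox, a log2 change of 2.33 (SE 0.16, adjusted p = 2e-10). In VIM-3039 it rose from 7.59, 12.3, 7.14 and 7.47 to 29.2, 31.2, 26.2 and 30.7, a change of 1.68 (SE 0.23, adjusted p = 1.03e-06). In MYC-2983 it was 48.6, 52, 44.6 and 38.1 without and 25.7, 24.5, 21.1 and 30.4 with Dox, with a log2 difference of −0.83 (SE 0.15, adjusted p = 7.83e-05) that stayed within the limit of 1. In each line the 4 libraries with Dox were separate from the 4 without. The Dox effect differed from that in MYC-2983 by 3.16 (SE 0.21, adjusted p = 2.85e-10) in VM-3055 and by 2.51 (SE 0.27, adjusted p = 7.57e-08) in VIM-3039, where 8.78% and 9.06% of all genes tested were called. The difference between VIM-3039 and VM-3055, a comparison that called 6.05% of genes, was −0.65 (adjusted p = 0.0633). A predicted gene, Gm20388, overlaps Snai3 on the opposite strand, and its part in these changes was not tested.

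Snai2 (Slug), a repressor of neural crest and mesenchyme, fell with Dox in both lines that expressed it. It was 142, 142, 126 and 128 units without and 50.3, 45.1, 44.4 and 51.9 with Dox in MYC-2983, and 111, 76.9, 86.7 and 112 without and 35.4, 31.9, 27.6 and 31.5 with Dox in VIM-3039. The log2 changes were −1.47 (SE 0.10, adjusted p = 1.09e-10) and −1.57 (SE 0.16, adjusted p = 7.46e-09), or means 2.80 and 3.06 times lower, with no overlap. Prrx1 fell as well, from 28.2, 35.5, 28.9 and 27.7 to 12.9, 10.3, 11.9 and 13.6 in MYC-2983 (−1.24, SE 0.17, adjusted p = 2.64e-06) and from 5.69, 6.69, 6.12 and 6.64 to 4.16, 2.08, 3.28 and 0.808 in VIM-3039 (−1.13, SE 0.36, adjusted p = 0.00808). The VIM-3039 values amount to a few reads, and without replicate 4 of the cells with Dox, at 0.808 units, the change was −0.83 and no longer called. With a pseudocount of 10 neither Prrx1 change was called (−0.85 and −0.38).

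The ZEB genes were lower with Dox in every line, past the limit of 1 in some. Zeb1 fell in VM-3055 from 624, 693, 591 and 554 units to 211, 249, 216 and 263 (−1.39, SE 0.08, adjusted p = 5.15e-11) and in VIM-3039 from 977, 921, 947 and 932 to 435, 482, 477 and 457 (−1.03, SE 0.05, adjusted p = 6.75e-15). In MYC-2983 it was 1062 ± 24.9 without and 610.2 ± 36.6 with Dox, a log2 difference of −0.80 (adjusted p = 1.71e-12) that is under the limit. The VIM-3039 call sits at that limit and was lost with rescaling by TMM (−0.87), with quantile normalization (−0.99) and without replicate 1 of the cells with Dox (−1.0). Zeb2 fell in VM-3055 from 1162, 1295, 1011 and 1086 to 480.3, 455, 507 and 462 (−1.25, SE 0.07, adjusted p = 1.03e-11), and its differences of −0.88 (adjusted p = 6.73e-14) in VIM-3039 and −0.51 (adjusted p = 9.6e-11) in MYC-2983 did not reach the limit. Neither the Zeb1 nor the Zeb2 effect differed between lines by more than 1 on the log2 scale, with the largest gap −0.74 (adjusted p = 1.69e-07) for Zeb2 between VM-3055 and MYC-2983.

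Snai1, Twist1, Twist2 and Grhl2 were not called with Dox in any line. Snai1 differed by −0.51 (adjusted p = 9.1e-06) in MYC-2983, −0.02 (adjusted p = 0.931) in VM-3055 and 0.11 (adjusted p = 0.159) in VIM-3039. Twist2 was separate only in VIM-3039, with 677, 665, 671 and 726 units without and 1001, 939, 955 and 985 with Dox (0.50, adjusted p = 3.85e-10). Twist1 was −0.66 (adjusted p = 5.97e-07) in MYC-2983 and −0.00099 (adjusted p = 0.995) in VIM-3039. Grhl2 lay between 0.544 and 7.37 units in all 24 cell libraries, and its Dox differences had adjusted p of 0.744, 0.362 and 0.405. In VM-3055 the median of genes with at least 50 units was itself −0.17, against 0.07 after TMM rescaling, so small shifts in that line depend on the scaling: Snai1 and Twist2 were −0.02 each as deposited and 0.22 each after TMM.

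**Figure D2:**
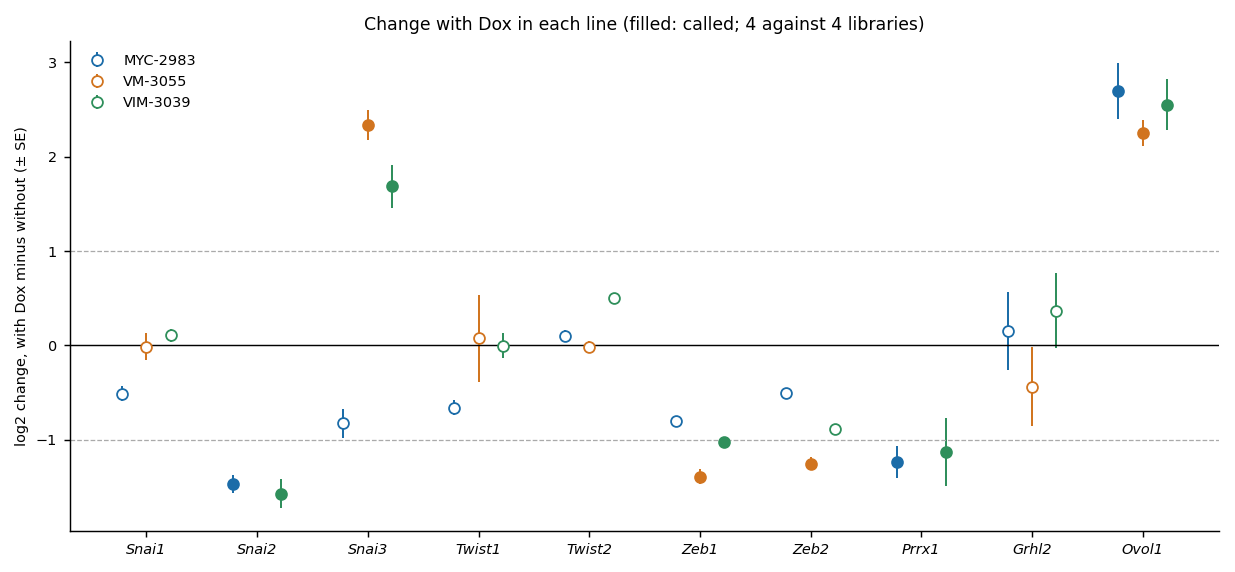
Log2 change with Dox against without Dox (vertical axis, ± SE) of the 10 genes in the 3 lines, 4 against 4 libraries each; filled points are called and dashed lines mark a change of 1. Ovol1 is above 2 in all lines, Snai3 is below 0 in MYC-2983 (−0.83) and above 1 in the other lines, and Snai2 and Prrx1 have no point in VM-3055.

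The genes that these factors act on, or act with, moved unevenly. Of all genes tested, 4.49%, 5.92% and 7.67% were called higher in MYC-2983, VM-3055 and VIM-3039, and 15%, 18.9% and 16.6% lower. Of the mesenchymal genes, 14 of 16 tested fell with Dox in MYC-2983, 13 of 15 in VM-3055 and 13 of 16 in VIM-3039, with none higher, and their median log2 changes were −1.48, −1.78 and −1.71 beside −0.13, −0.26 and −0.15 for all genes tested. In VIM-3039 the smooth muscle actin Acta2 (510.0 against 4928 units, −3.28) and the fibronectin receptor subunit Itga5 (1840.1 against 10314 units, −2.49) fell, and in VM-3055 the matrix gene Fn1 (23692 against 114419 units, −2.27), all given as means with against without Dox and the log2 change. Vim, a mesenchymal intermediate filament, fell in all lines (−1.15, −1.59 and −1.21), and N-cadherin (Cdh2) in MYC-2983 and VM-3055 (−1.06 and −1.16). The list includes Acta2, which is also a mural cell marker.

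Junction and polarity genes did not move as a block with Dox. In MYC-2983 3 rose and 6 fell of 24 tested. In VM-3055 0 rose and 4 fell of 22, and in VIM-3039 3 rose and 8 fell of 21. The shares of all genes called higher were 4.49%, 5.92% and 7.67% in the 3 lines, and those called lower 15%, 18.9% and 16.6%. E-cadherin (Cdh1) rose in VIM-3039, from 42.7, 40.1, 44.9 and 39.8 to 83.3, 95.7, 74.1 and 88.9 units (1.01, SE 0.14, adjusted p = 8.46e-07), and differed by 0.25 and 0.39 in MYC-2983 and VM-3055. The VIM-3039 call of Cdh1 sits at the limit of 1, and it was not recomputed under the alternatives run for the members. The tight junction gene Cldn4 fell in VM-3055 (124 against 496 units, log2 −1.99) and VIM-3039 (15.2 against 114 units, log2 −2.84), and the desmosome gene Dsp (423 against 150.3 units, 1.49) rose in MYC-2983. Of the other epithelial-state regulators 1 of 12, 1 of 11 and 2 of 9 tested rose and none fell. Esrp2 (128 against 54.9 units, 1.20), a splicing regulator of epithelia, rose in VIM-3039.

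Among other EMT-linked transcription factors, 7 of 14 tested fell in MYC-2983, 3 of 14 in VM-3055, and 4 of 14 in VIM-3039, where 1 rose. Beside these and the next counts, 15%, 18.9% and 16.6% of all genes were called lower, and 4.49%, 5.92% and 7.67% higher. The chromatin protein Hmga2 fell in MYC-2983 (624 against 1587 units, log2 −1.35), VM-3055 (523 against 1399.7 units, log2 −1.41) and VIM-3039 (1461 against 4112 units, log2 −1.49). Prrx2, the paralog of Prrx1, fell in MYC-2983 (88.8 against 225 units, log2 −1.33) and VIM-3039 (179 against 548 units, log2 −1.61). The AP-1 subunit Fosl1 (500.2 against 212 units, 1.24) was the one that rose. Of co-repressors and stability regulators of SNAIL and ZEB, 1, 2 and 2 of 20 fell and none rose, among them the Hippo kinase Lats2 in MYC-2983 (1137 against 2857 units, log2 −1.33), VM-3055 (803 against 1698 units, log2 −1.08) and VIM-3039 (793 against 1759 units, log2 −1.15). None of the 8, 7 and 7 tested bHLH partners and inhibitors of TWIST was called, with median log2 changes of −0.12, −0.05 and −0.16.

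Twist1 and Snai2 separated VM-3055 from the other lines. Both lay at the floor or lower throughout the 8 libraries of that line: Twist1 did not exceed 1.76 units and Snai2 did not exceed 0.882. Twist1 was 123, 127, 134 and 111 units in MYC-2983 and 69.4, 61, 68.2 and 75.1 in VIM-3039 with Dox, and 178, 203, 218 and 186 and 78.8, 70.2, 57.1 and 68.9 without. Against the floor, Twist1 was at least 47-fold (with Dox) and 74.2-fold (without) higher in MYC-2983 than in VM-3055, and at least 26-fold higher in VIM-3039 than in VM-3055 in either condition. For Snai2 these bounds were 18.2-fold and 50.8-fold for MYC-2983, and 12-fold and 36.5-fold for VIM-3039. Both genes were called in these 4 comparisons (limma, the highest adjusted p, for Snai2 in VIM-3039 against VM-3055 with Dox, was 3.11e-10). Twist1 was also lower in VIM-3039 than in MYC-2983. Without Dox it was called there, with log2 values of −1.57 to −1.42 without each library in turn. With Dox it was not called (−0.89 to −0.79).

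Prrx1 was low in the same line, at 0, 1.16, 0.775 and 0 units without and 0, 0, 0.849 and 0 with Dox, against 27.7 to 35.5 and 10.3 to 13.6 in MYC-2983 and 5.69 to 6.69 and 0.808 to 4.16 in VIM-3039. It was the only member called in all 6 comparisons of lines, although its differences against VIM-3039 cells rest on few reads and were lost with a pseudocount of 10 in 3 of the 4 and with quantile normalization in both comparisons of VIM-3039 with MYC-2983. Its paralog Prrx2 was also lowest in VM-3055, with 2.64 units in VM-3055, 88.8 in MYC-2983 and 179 in VIM-3039 with Dox.

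Ovol1, in turn, was highest in VM-3055, both with and without Dox (123 ± 3.49 and 25.2 ± 3.35 units, mean ± SD, n = 4), above MYC-2983 (45.9 ± 7.87 and 6.95 ± 3.48) and VIM-3039 (31.7 ± 4.54 and 4.76 ± 1.73). The differences of VM-3055 from MYC-2983 were 1.42 (adjusted p = 1.42e-07) with and 1.86 (adjusted p = 0.000143) without Dox, and those of VIM-3039 from VM-3055 were −1.93 (adjusted p = 1.54e-09) and −2.23 (adjusted p = 1.35e-06). VIM-3039 and MYC-2983 differed by −0.52 (adjusted p = 0.00931) and −0.37 (adjusted p = 0.386), both not called. Without Dox, VM-3055 cells thus held 20.9 to 29.1 units, below the 39.1 to 55.5 of MYC-2983 with Dox and overlapping the 26.2 to 36.1 of VIM-3039 with Dox.

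Snai3 depended on Dox for the order of the lines. With Dox, VM-3055 was above MYC-2983 (1.75, adjusted p = 7.56e-08) and above VIM-3039 (VIM-3039 minus VM-3055 −1.54, adjusted p = 5.1e-08). Without Dox, both VM-3055 and VIM-3039 were below MYC-2983 (−1.41, adjusted p = 1.15e-06, and −2.30, adjusted p = 9.7e-08). The former was lost with quantile normalization (−0.58). Twist2 was called between lines in 1 comparison, at 970.1 ± 28.2 units in VIM-3039 against 469 ± 16.1 in MYC-2983 with Dox (1.05, adjusted p = 4.94e-12). Zeb1 was called with Dox in VM-3055 against MYC-2983 (−1.38, adjusted p = 7.03e-10), and for VIM-3039 against VM-3055 its difference of 0.98 stood just inside the limit, passing at 1.01 to 1.04 when any of 3 libraries was left out. Snai1 and Zeb2 were called in none of the 6 comparisons. Under alternatives Snai1 was called for VIM-3039 with Dox, against VM-3055 without replicate 2 of that line, at 199 units (0.88 became 1.03), and against MYC-2983 with quantile normalization (0.81 became 1.07, adjusted p = 1.33e-07).

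In all, 6 members were called for VM-3055 against MYC-2983 with Dox and 5 without, where 24.6% and 24.9% of genes tested were called. With Dox 2 of them were higher and 4 lower (6.54% and 18.1% of all genes), and without Dox 1 was higher and 4 lower (8.36% and 16.6%). For VIM-3039 against MYC-2983 the members called were 2 and 3 (23.9% and 26.2%), with 1 higher and 1 lower with Dox (5.66% and 18.3%) and 0 higher and 3 lower without (6.88% and 19.3%). Quantile normalization changed these counts, to 4 higher and 0 lower with Dox, where Snai1 (1.07), Snai3 (1.14) and Grhl2 (1.28) were called in addition to Twist2 and Prrx1 was not, and to 1 higher and 2 lower without Dox, where Grhl2 (1.07) was called and Prrx1 was not. For VM-3055 against MYC-2983 without Dox it gave 2 higher, with Grhl2 (1.39) added, and 3 lower, with Snai3 lost. For VIM-3039 against VM-3055 the members called were 5 and 4 (19.1% and 21.7%), with 3 higher and 2 lower with Dox (9.69% and 9.45%) and 3 higher and 1 lower without (9.21% and 12.5%). The 3 comparisons at each Dox condition share libraries. Of the genes called against MYC-2983, 73.4% (VM-3055) and 76.4% (VIM-3039) were lower with Dox and 66.5% and 73.7% without, which quantile normalization brought to 47.7%, 51.5%, 48% and 51.3%. Beside the members, mesenchymal genes were lower in VM-3055 than in MYC-2983 with Dox for 11 of 16 and higher in VIM-3039 than in VM-3055 for 11 of 16, where 1 was lower. In VIM-3039 against MYC-2983 with Dox, 3 of the 16 were higher and 7 lower. The other epithelial-state regulators were lower in VIM-3039 than in VM-3055 with Dox for 5 of 10 tested and higher for none. Against MYC-2983 with Dox, 2 of 12 were higher and 2 lower in VM-3055, and 1 of 10 was higher and 4 lower in VIM-3039. Esrp1, a splicing regulator of epithelia, held 14.4 units in MYC-2983, 256 in VM-3055 and 71.2 in VIM-3039 with Dox. Junction genes were split, with 10 higher and 8 lower of 24 in VM-3055 against MYC-2983, 5 and 11 of 24 in VIM-3039 against MYC-2983, and 4 and 11 of 23 in VIM-3039 against VM-3055. Keratin Krt19 was highest in VIM-3039 (1317 units) with 195 in VM-3055 and 0.664 in MYC-2983.

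Markers of other cell types were examined in the lines, since Snai2, Prrx1 and the mesenchymal genes are also fibroblast genes. The summed fibroblast markers (9 genes) were 345 to 360 units with and 1131 to 1320 without Dox in MYC-2983, 87.4 to 113 and 633 to 712 in VM-3055, and 56.9 to 75.6 and 192 to 247 in VIM-3039, so they were lower with Dox in every line. Mural markers (6 genes) were 16896 to 19732 with and 68644 to 73404 without Dox in MYC-2983, mostly Acta2, 964 to 1180.4 and 1754 to 1998 in VM-3055, and 1086 to 1266 and 5948 to 6568 in VIM-3039, so they too were lower with Dox in every line. Among the fibroblast markers, Thy1 was at 0 in all VM-3055 and VIM-3039 libraries and Lum in all VM-3055 libraries. Of the 9 genes, 7 were at or under the floor in every library of VM-3055 with Dox and 4 without. These numbers were 5 and 4 in VIM-3039, and 1 and 2 in MYC-2983. The endothelial markers Pecam1 and Cdh5 did not exceed 6.58 and 4.59 units in any cell library. The leukocyte marker Ptprc was 2.24 to 69.9 units. Summed endothelial markers (8 genes) were 606 to 645 units with and 1471 to 1572 without Dox in MYC-2983. They were 763 to 797 and 1094 to 1302 in VM-3055, and 1090 to 1116 and 1556 to 1673 in VIM-3039. Summed leukocyte markers (9 genes) were 557 to 619 and 1307 to 1386 in MYC-2983, and 467 to 531 and 1145 to 1212 in VM-3055. In VIM-3039 they were 516 to 549 and 600 to 682. The part of other cell types in the Dox changes was not tested.

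Tumours were compared to normal kidney, with 2 mice for MYC and 3 each for VM and VIM against 5 kidneys. Exposure of the tumour mice to Dox, and to tamoxifen in VM and VIM, runs alongside these comparisons, and its part was not tested. In these comparisons 37.1%, 39.8% and 39.6% of the genes tested were called. Of the 10 members, 4 were called in MYC tumours (1 higher, 3 lower), 5 in VM tumours (1 higher, 4 lower) and 3 in VIM tumours (all lower), beside these shares of all genes. The shares of all genes called higher were 19.4%, 17.3% and 18.9%, and those called lower 17.7%, 22.5% and 20.7%.

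Snai2 fell in all 3 tumour types. Kidneys held 60.6, 45.3, 29.5, 26.1 and 79.7 units, MYC tumours 11.2, 7.72 and 0, VM tumours 7.99, 0 and 2.47 and VIM tumours 1.88, 5.01 and 5.51. Every tumour was below every kidney. The log2 differences were −2.56 (SE 0.58, adjusted p = 0.00677), −3.85 (SE 0.71, adjusted p = 0.00117) and −3.23 (SE 0.50, adjusted p = 0.00049). Against the B6-titled kidneys alone, the MYC difference was −2.49 and not called (adjusted p = 0.0531). Twist1 passed in VIM tumours (−1.67, SE 0.62, adjusted p = 0.0455), where all 3 were at or under the floor against 3.46, 7.30, 5.35, 8.14 and 15.2 units in kidneys, and that call was lost without any one of VIM tumour replicates 1 or 2 or kidney replicates 2 to 5.

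Zeb1 and Zeb2 parted in the tumours. Zeb1 fell in VM tumours (90.5, 77.3 and 25.9 units) and VIM tumours (26.4, 62.7 and 53.2) against kidneys at 201, 156, 173, 173 and 271, by −1.73 (SE 0.41, adjusted p = 0.00498) and −2.07 (SE 0.34, adjusted p = 0.000659) with no overlap. MYC tumours were 159, 269 and 237 units, within the spread of kidneys (0.07, adjusted p = 0.858). Zeb2 rose in MYC tumours, at 1356, 1484 and 1678 units against 573, 506, 476, 599 and 822 in kidneys (1.32, SE 0.21, adjusted p = 0.00128), and in VM tumours, at 1769.6, 1346 and 901 (1.14, SE 0.24, adjusted p = 0.00271). In VIM tumours it was 635, 878 and 1127 and overlapped kidney (0.55, adjusted p = 0.0742). Without VM tumour replicate 1 the Zeb2 difference in VM tumours was 0.91 and not called. Zeb2 is also expressed by leukocytes, and the summed leukocyte markers were 1446 to 2469 units in kidneys and 3842 to 18795 in tumours, higher in all 9. Their part in the Zeb2 levels was not tested.

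**Figure D3:**
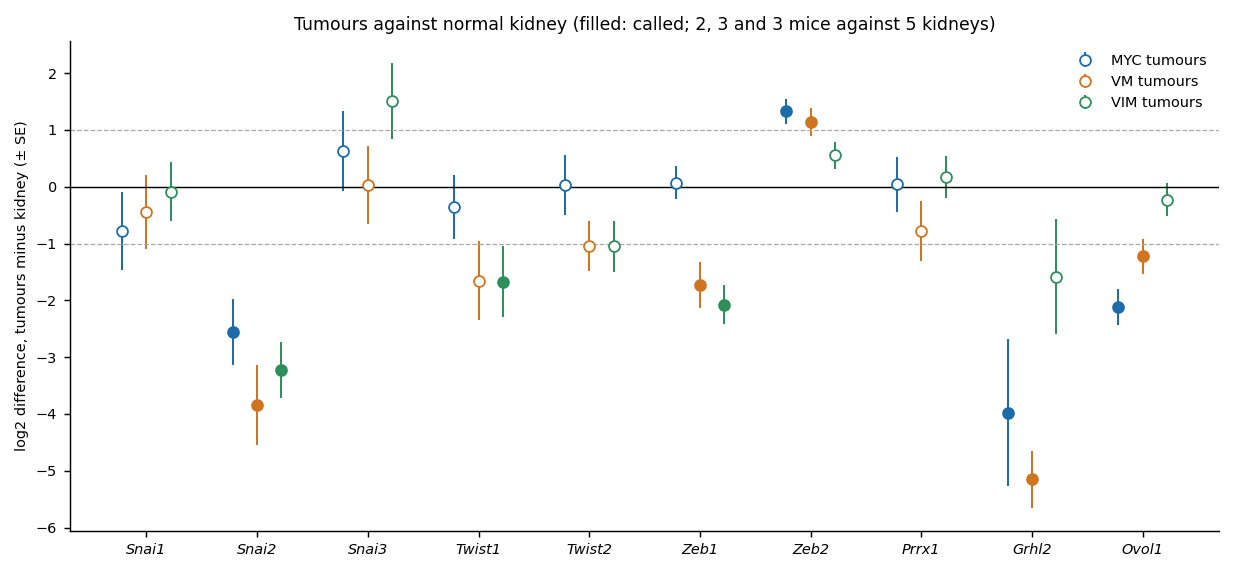
Log2 difference of tumours from normal kidney (vertical axis, ± SE) for the 10 genes, with 2 MYC, 3 VM and 3 VIM mice against 5 kidneys; filled points are called and dashed lines mark a difference of 1. Snai2 is below −2 in all tumour types, Zeb2 is above 1 in MYC and VM tumours, and Grhl2 has the widest error in MYC and VIM tumours (SE 1.29 and 1.01).

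Grhl2, the keeper of junction genes, was lost from VM tumours and split the MYC and VIM tumours. Kidneys held 74.4, 149, 88.4, 86.3 and 244 units and VM tumours 3.99, 1.03 and 2.47, all at or under the floor, at least 32.1-fold below kidney (−5.15, SE 0.51, adjusted p = 2.45e-05). MYC tumours were 0, 106 and 1.41 and VIM tumours 60.3, 204 and 3.67, so that MYC tumour replicate 2 and VIM tumour replicates 1 and 2 lay near kidney and the others near or under the floor. The pooled difference was −3.98 (SE 1.29, adjusted p = 0.0314) in MYC and −1.59 (SE 1.01, adjusted p = 0.216) in VIM tumours. The 2 MYC libraries of mouse 2983, replicates 2 and 3, were 106 and 1.41 units, and without replicate 1, which leaves mouse 2983 alone and assumed to vary like the kidneys, the difference was −1.09 and not called. The MYC call was also lost without MYC replicate 3 (−3.49) and without each of kidney replicates 2 to 5. Without VIM tumour replicate 2, at 204 units, the difference in VIM tumours was −2.79 and called (adjusted p = 0.0309).

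Epcam, an epithelial adhesion gene, and Cdh1 were lowest in the 6 tumour libraries with Grhl2 near or under the floor. Epcam was 758, 1248, 830.0, 881 and 1996 units in kidneys, 17.7, 926 and 14.1 in MYC tumours, 6.66, 5.15 and 6.17 in VM tumours and 377, 668 and 49.6 in VIM tumours. Cdh1 was 2600.3 to 4372 units in kidneys, 446, 1339.5 and 335 in MYC tumours, 329, 274 and 878 in VM tumours and 2075, 3847 and 255 in VIM tumours. The 14 libraries form separate clusters, so no correlation is given. Markers of the loop of Henle, distal tubule and collecting duct, parts of the kidney where Grhl2 is known to be expressed, summed to 81991 to 179107 units in kidneys, 120, 3060 and 242 in MYC tumours, 69 to 153 in VM tumours and 795, 8506 and 593 in VIM tumours. The highest sums in MYC and VIM tumours were thus in the libraries with the highest Grhl2. The part of such tubule cells in the Grhl2 levels was not tested.

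**Figure D4:**
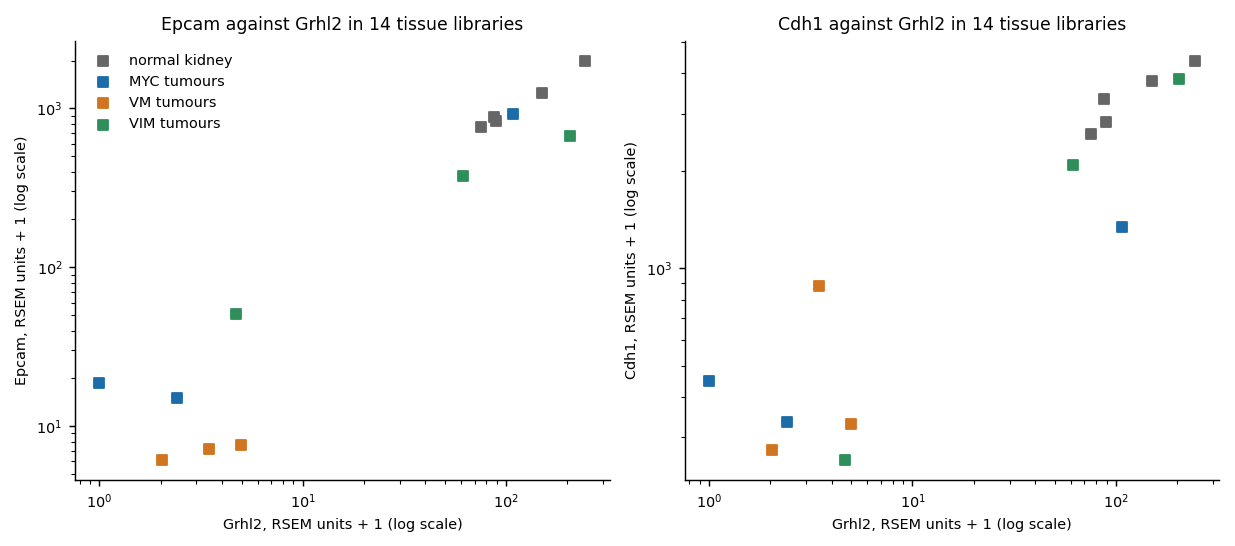
Epcam (left) and Cdh1 (right) against Grhl2 in the 14 tissue libraries, each axis in RSEM units + 1 on a log scale. Kidneys, MYC tumour replicate 2 and VIM tumour replicates 1 and 2 sit at the upper right, whereas all VM tumours and the 3 other tumours have Grhl2 of at most 3.99 units.

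Ovol1 fell in MYC and VM tumours. Kidneys held 215, 318, 187, 299.7 and 164 units, MYC tumours 53.2, 60.2 and 41, VM tumours 87.9, 73.2 and 143 and VIM tumours 243, 208 and 147. MYC and VM tumours did not overlap kidney (−2.12, SE 0.31, adjusted p = 0.000806, and −1.23, SE 0.31, adjusted p = 0.00778), and VIM tumours did (−0.23, adjusted p = 0.528). Against the 2 kidneys with B6 in the title, whose meaning the labels do not give, the VM differences of Ovol1 and Zeb1 were −1.04 and −1.70 and not called (adjusted p = 0.0884 and 0.0777). Against cells with Dox, Ovol1 overlapped between MYC-2983 (39.1 to 55.5) and MYC tumours and between VM-3055 (118 to 126) and VM tumours, but VIM tumours were 6.28 times the mean of VIM-3039 cells, without overlap.

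Snai1, Snai3, Twist2 and Prrx1 were not called in any tumour type against kidney. Twist2, at or under the floor in all 14 libraries, was called lower in VM tumours under 5 alternatives, among them voom (−1.57), 1 fit over all tissue (−1.05), the B6 kidneys (−1.34) and leaving out kidney replicate 2 (−1.31), and in VIM tumours under 3 (−1.05 in 1 fit over all tissue, −1.31 without kidney replicate 2 and −3.18 with a pseudocount of 0.1, which gave the same value in VM tumours). Snai3 was 6.92, 8.76, 5.35, 1.63 and 13.9 units in kidneys and 32, 30.1 and 7.34 in VIM tumours (1.51, adjusted p = 0.0849), and without VIM tumour replicate 3 the difference was 2.15 and called, as it was with quantile normalization (1.69). Snai1 in MYC tumours was −0.78, and −2.16 and called without replicate 2. In VM tumours, Twist1 (−1.65) and Prrx1 (−0.78) were called without replicate 1, at −2.44 and −1.33. Prrx1 was 18.7, 81.8 and 11.3 units in MYC tumours, and replicate 2, the highest, also had the highest summed fibroblast markers (13059 units, against 1384 and 1054 in the other MYC tumours and 1560 to 5321 in kidneys). In VM tumours Prrx1 (36, 7.22 and 16) and the fibroblast sums (2021, 674 and 1000) had the same order. In VIM tumours Prrx1 was 24.5 to 40.1 units and the fibroblast sums 1083 to 2837, and in kidneys Prrx1 was 22.8 to 41.7 units. The order by library was not compared in these groups. The part of fibroblasts was not tested.

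Between tumour types no member was called. Of all genes tested, 0.0% were called for VM against MYC tumours, 0.00616% for VIM against MYC and 0.249% for VIM against VM (limma, 0, 1 and 40 genes, with 2212, 2379 and 1831 at an unadjusted p under 0.05, and 0, 0 and 15 genes with limma voom on recovered reads). The lowest unadjusted p of a member was 0.00673, for Ovol1 in VIM against MYC tumours. Zeb1 was separate between MYC tumours and the others, by −1.80 (adjusted p = 0.337) for VM and −2.14 (adjusted p = 0.262) for VIM. Ovol1 ranged from 41 to 60.2 units in MYC, 73.2 to 143 in VM and 147 to 243 in VIM tumours, 3 ranges without overlap, with differences of 0.90 (adjusted p = 0.52), 1.89 (adjusted p = 0.25) and 1.0 (adjusted p = 0.459) for VM against MYC, VIM against MYC and VIM against VM. In a single fit over all tumours and kidneys, Zeb1 and Ovol1 were called for VIM against MYC (adjusted p = 0.0442 and 0.0246).

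Around the members, the junction and polarity genes fell in the tumours more often than they rose. Of 24 tested, 11 fell and 2 rose in MYC tumours, 16 and 2 in VM tumours, and 8 and 3 in VIM tumours. Of all genes tested, 17.7%, 22.5% and 20.7% were called lower in the 3 types, and 19.4%, 17.3% and 18.9% higher. Epcam (5.99 against 1143 units, −7.26), the trafficking gene Mal2 (12.5 against 1034 units, −7.04) and the junction scaffold Tjp3 (0.855 against 219 units, −6.89) had the largest falls in VM tumours (means in tumours against kidney, and the log2 difference of the fit, in which the pair of libraries of mouse 2983 counts once). The tight junction gene Cldn3 rose in MYC (1788 against 131 units, log2 4.03), VM (589.8 against 131 units, log2 2.01) and VIM tumours (1608 against 131 units, log2 3.27). Of the other epithelial-state regulators, 2 of 12 rose and 3 fell in MYC tumours, 3 and 6 in VM tumours, and 1 and 1 in VIM tumours. Esrp1 (3.63 against 222 units, −6.16) fell in VM tumours and Klf5 (168 against 4.95 units, 4.79) rose in MYC tumours.

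Mesenchymal genes rose for 8 of 16 and fell for 1 in MYC tumours, 5 and 5 in VM tumours, and 5 and 2 in VIM tumours. The counts of this paragraph stand beside 19.4%, 17.3% and 18.9% of all genes called higher, and 17.7%, 22.5% and 20.7% lower. The collagen crosslinker Loxl2 rose in MYC (2676 against 159.7 units, log2 3.06), VM (3755 against 159.7 units, log2 4.46) and VIM tumours (2319.9 against 159.7 units, log2 3.89), whereas Cdh2 fell in VM (2.53 against 92.8 units, log2 −5.03) and VIM tumours (8.75 against 92.8 units, log2 −3.40). Other EMT-linked transcription factors rose for 5 of 13 in MYC tumours (1 fell), and for 4 of 12 in VM tumours (2 fell) and in VIM tumours (1 fell). Sox4, an SRY-box factor, was among them in MYC (1068 against 165 units, log2 2.63), VM (782 against 165 units, log2 2.31) and VIM tumours (511 against 165 units, log2 1.62). Of 20 co-repressors and stability regulators, 4, 5 and 3 rose and 1, 3 and 3 fell. The histone methyltransferase Ezh2 rose in MYC (857 against 129 units, log2 2.57), VM (648 against 129 units, log2 2.27) and VIM tumours (687 against 129 units, log2 2.40). Of 7 bHLH partners and inhibitors of TWIST 1 rose in each type and 3, 2 and 3 fell, with the inhibitor Id4 lower in MYC (35.4 against 461 units, log2 −3.55), VM (1.74 against 461 units, log2 −7.30) and VIM tumours (35.2 against 461 units, log2 −3.97).

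Tumours and kidney also differed in cell-type markers. Proximal tubule markers summed to 282618 to 318675 units in kidneys and 3131 to 18340 in tumours, endothelial markers to 4436 to 7677 and 284 to 2579, and kidney epithelium markers to 20612 to 29127 and 9329 to 19575. These differences run alongside every comparison of tumours with kidney, and their part in it was not tested.

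The order of the groups differed by gene. Zeb1 ran from MYC-2983 without Dox (1062 units) through VIM-3039 (944) and VM-3055 without Dox (616) to MYC-2983 (610), VIM-3039 (463) and VM-3055 with Dox (235), with MYC tumours (221) and kidney (195) next and VM and VIM tumours last (64.6 and 47.4). The ranges of neighbours overlapped between VM-3055 without and MYC-2983 with Dox, from VM-3055 with Dox to kidney, and between VM and VIM tumours, and the other neighbours were separate. Zeb2 was highest in MYC tumours (1506) and lowest in VM-3055 with Dox (476), with mostly overlapping neighbours. Ovol1 ran from kidney (237) and VIM tumours (199) to MYC-2983 (6.95) and VIM-3039 without Dox (4.76). Corrected for exon length, kidney had Ovol1 first (81.7 units per kb), then Zeb2 (38.7), Snai2 (23.7) and Grhl2 (23.3). MYC and VM tumours had Zeb2 first (98 and 87.1 units per kb), and VIM tumours Ovol1 (68.7) and then Zeb2 (57.2). In the cell groups Twist2 led with 329.6 to 730.0 units per kb.

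For each member the gene of most similar pattern across the 10 group means was sought (Pearson r of log2(value + 1), over 14946 genes). How high the best r of any gene would be in such a search was not tested. Twist2 was most like Tead4 (r = 0.995) and Snai1 also most like Tead4 (r = 0.99), and Twist2 and Snai1 were alike with r = 0.987. Zeb1 was most like Ctsw (r = 0.993), Prrx1 like Igf1 (r = 0.991), Grhl2 like Cox8b (r = 0.987), Snai2 like Zfhx3 (r = 0.979), Ovol1 like Grsf1 (r = 0.972), Twist1 like Gnb4 (r = 0.969), Zeb2 like Sdccag8 (r = 0.955) and Snai3 like Dlk2 (r = 0.871). Within the set, Snai2 and Twist1 had r = 0.915 and Zeb1 and Ovol1 r = −0.833. Of the 10 points 6 are cells and 4 tissue, and the 6 come from 2 of the 3 title series.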

How the data were processed

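RNAseq was measured in 38 mouse libraries (TruSeq Stranded mRNA, paired-end). The authors aligned reads to mm9 with MapSplice, counted genes with RSEM on UCSC knownGene models and set the upper quartile of every library to 1000, and the deposited values are used as this normalised signal. The submitters' processing notes also name Picard 1.64 and SAMtools. Of 21705 genes, 3235 were at 0 in every library. A single read was set equal to the most frequent value under 3 units of its library. With that step, 94.1% to 95.9% of values under 20 reads were whole within 0.02, which allowed limma voom on recovered reads as an alternative. The strand setting of the counting is not given in the sources used here.

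Groups were taken from the labels. Values were tested on log2(value + 1) with limma 3.58.1 (lmFit and eBayes with trend, R 4.3.3), two-sided, on genes above 0 in at least 4 cell or 2 tissue libraries, with Benjamini-Hochberg adjustment over all genes tested. A call needed an adjusted p under 0.05 and a log2 change over 1. Libraries of mouse 2983 in the MYC tumours were averaged. Fits were tested on simulated data. A gene at or under 3 reads was set to that floor for bounds on folds, which cover counting error only. Tables and figures used Python 3.11.15, pandas 2.3.3, numpy 2.4.6 and matplotlib 3.10.9.

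The 10 members were given by their symbols, and they and the gene lists were chosen with earlier results of these data known. Beside the members, the text names from each list and comparison at most 3 called genes per direction by size of change. These average 50 units or more in the group with the higher level. Cdh1, Epcam, Cdh2, Vim, Vhl and Cdkn2a, single cell-type markers and the most similar genes are named as well. The most similar genes were sought among those that average 10 units or more in 1 group. Promoter windows and motifs came from RefSeq (GRCm38.p6), and gene positions from the NCBIM37 annotation.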

Additional observations from a re-analysis of the deposited data

Results flagged for a closer look

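Single libraries were flagged in 6 of 70 combinations of a member and a group of 4 or 5 libraries. The flag compares the gap to the next library with the range of the group. By chance it gives about 1 in 20 for normally distributed values, which values of a few reads are not. Prrx1 was 35.5 units in replicate 2 of MYC-2983 without Dox, with the other replicates at 27.7 to 28.9. Snai3 was 12.3 units in replicate 2 of VIM-3039 without Dox, with the others at 7.14 to 7.59. The other 4 lie at or under the floor of 3 reads. Snai2 and Prrx1 were each 0.849 units in replicate 3 of VM-3055 with Dox and 0 in the others, Twist1 was 0 in that same replicate, and Twist2 was 0 in kidney replicate 2.

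The Dox effect differed between lines by the interaction test for Snai2 and Snai3. For Snai3 it differed by 3.16 on the log2 scale between VM-3055 and MYC-2983 and by 2.51 between VIM-3039 and MYC-2983. For Snai2 it differed by 1.26 between VM-3055 and MYC-2983 and by −1.36 between VIM-3039 and VM-3055, with Snai2 barely detected in the 8 libraries of VM-3055, so these values depend on the pseudocount.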

How the results depend on the processing

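The members and the counts of genes were recomputed with another pseudocount (0.1 or 10), other filters, TMM or quantile rescaling, limma voom on recovered reads, 1 fit over more groups, kidneys of 1 title series, each MYC tumour library kept as a replicate, the replicate block, and without each library in turn. Of 53 called results of members, 37 kept their direction and their call under every alternative in which the gene was tested. None took the other sign. The other called results lost the call in 41 cases in all, among them Prrx1 with a pseudocount of 10 or quantile normalization. Alternatives that left a gene untested were not counted. One was the filter on mean level for Prrx1 in VM-3055 against MYC-2983 with Dox. Zeb1 with Dox in VIM-3039 was −0.87 (TMM), −0.99 (quantile) and −1.0 (without VIM-3039 with Dox replicate 1), and Twist1 in VIM tumours against kidney lost its call in 10 cases. The interactions of Snai2 were 0.70 and −0.81 with a pseudocount of 0.1, and 1.52 and −1.66 with voom (adjusted p = 0.065 and 0.0889). Of 124 results not called, 19 were called under 1 alternative or more. Counts of called genes moved by over 1.5 times under some alternatives, and the cause was not tested. With a pseudocount of 10, the counts were 1936 in place of 2942 for Dox in MYC-2983, 2314 in place of 3635 for VM-3055 against MYC-2983 with Dox, 2198 in place of 3515 for VIM-3039 against MYC-2983 with Dox, 1653 in place of 2691 for VIM-3039 against VM-3055 with Dox, 2522 in place of 3784 for VM-3055 against MYC-2983 without Dox, 1981 in place of 3141 for VIM-3039 against VM-3055 without Dox, 675 in place of 1389 for the interaction of VM-3055 against MYC-2983, 674 in place of 1416 for the interaction of VIM-3039 against MYC-2983, 458 in place of 918 for the interaction of VIM-3039 against VM-3055, 0 in place of 1 for VIM against MYC tumours and 26 in place of 40 for VIM against VM tumours. After a filter on mean level (10 units), the counts were 2342 in place of 3515 for VIM-3039 against MYC-2983 with Dox, 856 in place of 1389 for the interaction of VM-3055 against MYC-2983, 854 in place of 1416 for the interaction of VIM-3039 against MYC-2983, 541 in place of 918 for the interaction of VIM-3039 against VM-3055 and 24 in place of 40 for VIM against VM tumours. With 1 fit over all tumours and kidneys, the counts were 407 in place of 0 for VM against MYC tumours, 719 in place of 1 for VIM against MYC tumours and 469 in place of 40 for VIM against VM tumours. With each MYC tumour library kept as a replicate, the counts were 33 in place of 0 for VM against MYC tumours and 7 in place of 1 for VIM against MYC tumours. With a pseudocount of 0.1, the counts were 0 in place of 1 for VIM against MYC tumours. With voom on recovered reads, the counts were 0 in place of 1 for VIM against MYC tumours and 15 in place of 40 for VIM against VM tumours. Without each library in turn the counts were 0 to 4 for VM against MYC tumours, 0 to 9 for VIM against MYC tumours and 2 to 45 for VIM against VM tumours.

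Of the 124 results not called, 42 took the other sign under 1 alternative or more, and 0 of them were called with it. With TMM rescaling, the log2 values were Snai1 0.22 and Twist2 0.22 (Dox in VM-3055), Twist1 0.16 (Dox in VIM-3039), Snai1 0.086 (VM-3055 against MYC-2983 with Dox), Snai1 −0.0018 (the interaction of VIM-3039 against VM-3055) and Twist2 −0.035, Zeb1 −0.057 and Prrx1 −0.082 (MYC tumours against kidney). With quantile normalization, the log2 values were Snai1 0.37, Twist2 0.14 and Grhl2 0.20 (Dox in VM-3055), Twist1 0.48 (Dox in VIM-3039), Snai1 0.33 (VM-3055 against MYC-2983 with Dox), Snai2 0.24 and Ovol1 0.32 (VIM-3039 against MYC-2983 with Dox), Ovol1 0.68 (VIM-3039 against MYC-2983 without Dox), Snai2 0.37 (the interaction of VIM-3039 against MYC-2983), Snai1 −0.093 and Twist1 0.10 (the interaction of VIM-3039 against VM-3055), Twist2 −0.078 and Zeb1 −0.14 (MYC tumours against kidney), Snai1 0.30 (VM tumours against kidney), Snai1 0.15 (VIM tumours against kidney), Snai3 0.13 (VM against MYC tumours) and Snai1 −0.16 (VIM against VM tumours). With a pseudocount of 0.1, the log2 values were Grhl2 −0.021 (VIM-3039 against MYC-2983 without Dox), Prrx1 −0.16 (the interaction of VIM-3039 against MYC-2983) and Twist1 0.042 (VIM against VM tumours). With a pseudocount of 10, the log2 values were Ovol1 0.19 (the interaction of VM-3055 against MYC-2983), Ovol1 −0.42 (the interaction of VIM-3039 against VM-3055) and Twist2 −0.0068 (MYC tumours against kidney). With voom on recovered reads, the log2 values were Prrx1 −0.056 (the interaction of VIM-3039 against MYC-2983), Twist2 −0.13 (MYC tumours against kidney), Snai3 −0.049 (VM tumours against kidney) and Twist1 0.34 (VIM against VM tumours). With each MYC tumour library kept as a replicate, the log2 values were Twist2 −0.11 and Prrx1 −0.13 (MYC tumours against kidney) and Snai2 0.029 (VIM against MYC tumours). Against the kidneys with B6 in the title only, the log2 values were Twist1 0.25 and Twist2 −0.26 (MYC tumours against kidney) and Snai1 0.17 (VIM tumours against kidney). Against the kidneys with KT in the title only, the log2 values were Prrx1 −0.12 (MYC tumours against kidney). Grhl2 without each library in turn ran over log2 values of −0.077 to 0.64 (Dox in MYC-2983), −0.46 to 0.42 (VM-3055 against MYC-2983 with Dox), −0.26 to 0.44 (VIM-3039 against MYC-2983 with Dox), −0.20 to 0.51 (VIM-3039 against VM-3055 with Dox), −0.27 to 0.31 (VIM-3039 against MYC-2983 without Dox), −0.27 to 0.49 (the interaction of VIM-3039 against MYC-2983), −4.07 to 1.08 (VM against MYC tumours) and −0.50 to 4.65 (VIM against MYC tumours). Snai1 without each library in turn ran over log2 values of −0.17 to 0.086 (Dox in VM-3055), −0.22 to 0.028 (VM-3055 against MYC-2983 with Dox), −1.10 to 0.045 (VM tumours against kidney), −0.43 to 0.13 (VIM tumours against kidney), −0.43 to 1.72 (VM against MYC tumours), −0.068 to 2.08 (VIM against MYC tumours) and −0.13 to 1.02 (VIM against VM tumours). Twist1 without each library in turn ran over log2 values of −0.11 to 0.38 (Dox in VM-3055), −0.085 to 0.067 (Dox in VIM-3039), −0.38 to 0.11 (the interaction of VIM-3039 against VM-3055) and −0.70 to 0.77 (VIM against VM tumours). Twist2 without each library in turn ran over log2 values of −0.074 to 0.0099 (Dox in VM-3055) and −0.57 to 0.36 (MYC tumours against kidney). Ovol1 without each library in turn ran over log2 values of −0.36 to 0.25 (the interaction of VIM-3039 against MYC-2983). Prrx1 without each library in turn ran over log2 values of −0.10 to 0.41 (the interaction of VIM-3039 against MYC-2983), −0.93 to 0.68 (MYC tumours against kidney), −1.46 to 0.15 (VM against MYC tumours) and −0.51 to 1.11 (VIM against MYC tumours). Zeb1 without each library in turn ran over log2 values of −0.0024 to 0.40 (MYC tumours against kidney) and −0.89 to 0.024 (VIM against VM tumours). Snai3 without each library in turn ran over log2 values of −0.46 to 0.67 (VM tumours against kidney) and −1.16 to 0.038 (VM against MYC tumours). Zeb2 without each library in turn ran over log2 values of −0.41 to 0.076 (VM against MYC tumours). Snai2 without each library in turn ran over log2 values of −1.09 to 0.47 (VIM against MYC tumours) and −0.21 to 1.38 (VIM against VM tumours).

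Replicate numbers are shared by VM-3055 and VIM-3039 libraries. Same-numbered libraries did not deviate together (r = −0.242 to 0.207 over 16 pairs, 3 over 0.1), so the numbers were not taken as a pairing. The replicate block called 3572 (Dox in VM-3055), 3397 (Dox in VIM-3039), 2696 and 3161 (VIM-3039 against VM-3055 with and without Dox) and 869 genes (their interaction), and changed no call of a member. With quantile normalization the share of called genes that were lower of the interactions went from 62.9% to 51.7% for VM-3055 against MYC-2983, and from 38.8% to 51.8% for VIM-3039 against VM-3055. With voom on recovered reads, 3200, 3675 and 3503 genes were called for Dox in MYC-2983, VM-3055 and VIM-3039. Depth limits Snai2, Twist1 and Prrx1 in VM-3055 and Twist2 in tissue, where 3 reads were not exceeded.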
